A study of Mus musculus with 64 samples.

Results

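NAD is made in mammalian cells by several routes that join before the final steps. Nicotinamide, the product of NAD-consuming enzymes, is returned to the pool by NAMPT, which makes nicotinamide mononucleotide. Nicotinic acid enters through NAPRT, tryptophan through the kynurenine enzymes and QPRT, and nicotinamide riboside through the NMRK kinases. The NMNAT enzymes add the adenylyl group, NADSYN1 turns the nicotinic acid dinucleotide into NAD, NADK phosphorylates NAD to NADP, and NNMT methylates nicotinamide and so removes it from salvage. The levels of 10 of these genes (*Nampt*, *Naprt*, *Nmnat1*, *Nmnat2*, *Nmnat3*, *Nadsyn1*, *Qprt*, *Nmrk1*, *Nnmt* and *Nadk*) were read out of the 52636 genes of the count table. They were chosen by symbol as core enzymes of the routes, to ask whether the RNA of other routes was higher where *Nampt* was deleted. All 10 passed the filter on low counts.

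Brown fat (BAT, brown adipose tissue) and epididymal white fat (eWAT) of young adult male mice were sampled for RNA sequencing at Zeitgeber time (ZT) 6, 10, 18 and 22 h, counted from lights on, and each of the 16 groups held 4 samples. The wildtype (WT) mice were littermates without Cre, and the fat-specific *Nampt* knockout (FANKO) mice carried the floxed *Nampt* TM1Jtree allele with Cre driven by the adiponectin promoter. All samples bear 1 strain label, and that the controls came from the same line rests on their being littermates. Deletion is limited to cells that express adiponectin, and other cells of the fat pad, such as macrophages, endothelial cells and fibroblasts, keep *Nampt*. In whole tissue, fewer cells of a type cannot be told apart from less RNA per cell.

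The floxed part is exon 3 of the 11 exons of the main *Nampt* transcript, at chr12:32833032-32833135 on the plus strand of GRCm38. It is wholly coding and 104 bases long, with a remainder of 2 after division by 3. It is shown because it is the deleted sequence, and because the gene count hardly rests on it:

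*Nampt* exon 3: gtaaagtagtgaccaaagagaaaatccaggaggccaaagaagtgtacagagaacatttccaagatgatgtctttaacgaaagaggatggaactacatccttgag

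These 104 bases are 2.06% of the 5054 annotated exonic bases of *Nampt* (chr12:32819545-32853349). A transcript without exon 3 can still be counted over the other exons, so the count is a measure of all *Nampt* RNA and no direct check of the deletion.

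Counts were scaled by TMM and are given as CPM, the count relative to the scaled library size, or as CPM per kilobase of exon where genes are compared with each other. A gene is called when edgeR's adjusted p is below 0.01, and a fold is FANKO against WT for the mean over the day unless another contrast is named. Total counts were 6117343 to 30544847 per sample. The summed CPM of 5 brown adipocyte markers was 5117 to 11113 in WT BAT and 7.8 to 29.6 in WT eWAT. In 15 libraries, 8 of BAT and 7 of eWAT, the summed CPM of 4 skeletal muscle genes was above 50 or that of 5 epididymis genes above 10. These limits were chosen after seeing the data, lower levels were found in other libraries, and the counts of called genes were repeated without the 15.

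In WT mice the RNA levels of these genes differed between the depots. Per kilobase of exon, *Nampt* led in WT BAT with 142.5 ± 46.3 CPM per kb (SD, n = 16), followed by *Nadk* with 104.6 ± 11.4, and the ranges of these 2 genes overlapped. *Naprt*, *Nnmt* and *Nmnat1* came next at 13.6, 10.1 and 8.65 CPM per kb, each with a range that overlapped that of its neighbour. *Nadsyn1*, *Nmnat3* and *Nmrk1* lay between 3.48 and 4.43 CPM per kb and overlapped as well. *Qprt* at 0.0882 and *Nmnat2* at 0.0414 CPM per kb were scarcely detected, and every library had less of them than of *Nmrk1*. In WT eWAT the order began with *Nnmt* at 71.8 ± 12.7 CPM per kb (SD, n = 16), whose range overlapped that of *Nadk* at 62.3 ± 9.90. *Nampt* followed at 33.3 ± 11.5 CPM per kb, and its range did not overlap that of *Naprt*, the next gene, at 4.09.

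All 10 genes differed between the WT depots, as did 73.7% of all genes tested, with 7 higher in BAT (32.7% of all genes were) and 3 lower (41.1% were). *Nampt* was 4.32-fold higher in BAT than in eWAT, *Naprt* 3.36-fold and *Nmnat1* 3.21-fold, while *Nmrk1*, *Nmnat3*, *Nadsyn1* and *Nadk* were 1.69-fold to 1.95-fold higher. *Nmnat2* was 9.34-fold lower in BAT, *Nnmt* 7.45-fold and *Qprt* 3.48-fold. With library size as the only scaling, the log2 difference between the depots shifted by a median of -0.75 over all genes, and 4 in place of 7 of the genes were called higher in BAT.

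In FANKO BAT the salvage enzymes *Nampt*, *Naprt* and *Nmrk1* and most enzymes of the last steps were lower under TMM scaling, and *Qprt* of the route from tryptophan was higher. Of the 10 genes, 8 were called lower in FANKO BAT (33.9% of all genes were) and 2 were called higher (33.1% of all genes were). The median log2 difference of the 10 genes was -0.55, beside 0.00 over all genes. Both genes that rose, *Nmnat2* and *Qprt*, had a median below 1 CPM in both genotypes. None of the 10 genes with a median above 1 CPM in WT BAT rose under TMM scaling. With library size as the only scaling, 3 of the 10 genes were called lower and 4 higher, and the genes that depend on this choice are named below.

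*Nampt* ran from 479 to 1454 CPM in WT BAT (median 702) and from 109 to 186 CPM in FANKO BAT (median 143). No FANKO library reached the lowest WT library, and *Nampt* fell by 2.31 ± 0.07 on the log2 scale (SE), a 4.97-fold difference with an adjusted p of 1.09e-36 by edgeR. It was still the second of the 10 transcripts per kilobase in FANKO BAT, at 27.9 ± 3.71 CPM per kb (SD, n = 16), behind *Nadk* at 65.5 ± 6.50.

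*Naprt*, which starts salvage from nicotinic acid, fell almost as far. It ran from 27.6 to 39.5 CPM in WT BAT (median 32.0) and from 6.67 to 12.01 CPM in FANKO BAT (median 9.37), again without overlap. The fall was 1.78 ± 0.07 on the log2 scale (3.43-fold, adjusted p = 6.49e-32 by edgeR). *Naprt* shares 277 exonic bases on the same strand with *Eef1d*, and reads there cannot be placed with certainty. *Nmrk1*, the kinase that admits nicotinamide riboside, had a median of 12.4 CPM in WT BAT and 8.38 CPM in FANKO BAT. Its fall of 0.63 ± 0.06 on the log2 scale was called under TMM but was 0.04 with library size alone and then not called (adjusted p = 0.588).

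**Figure D1:**
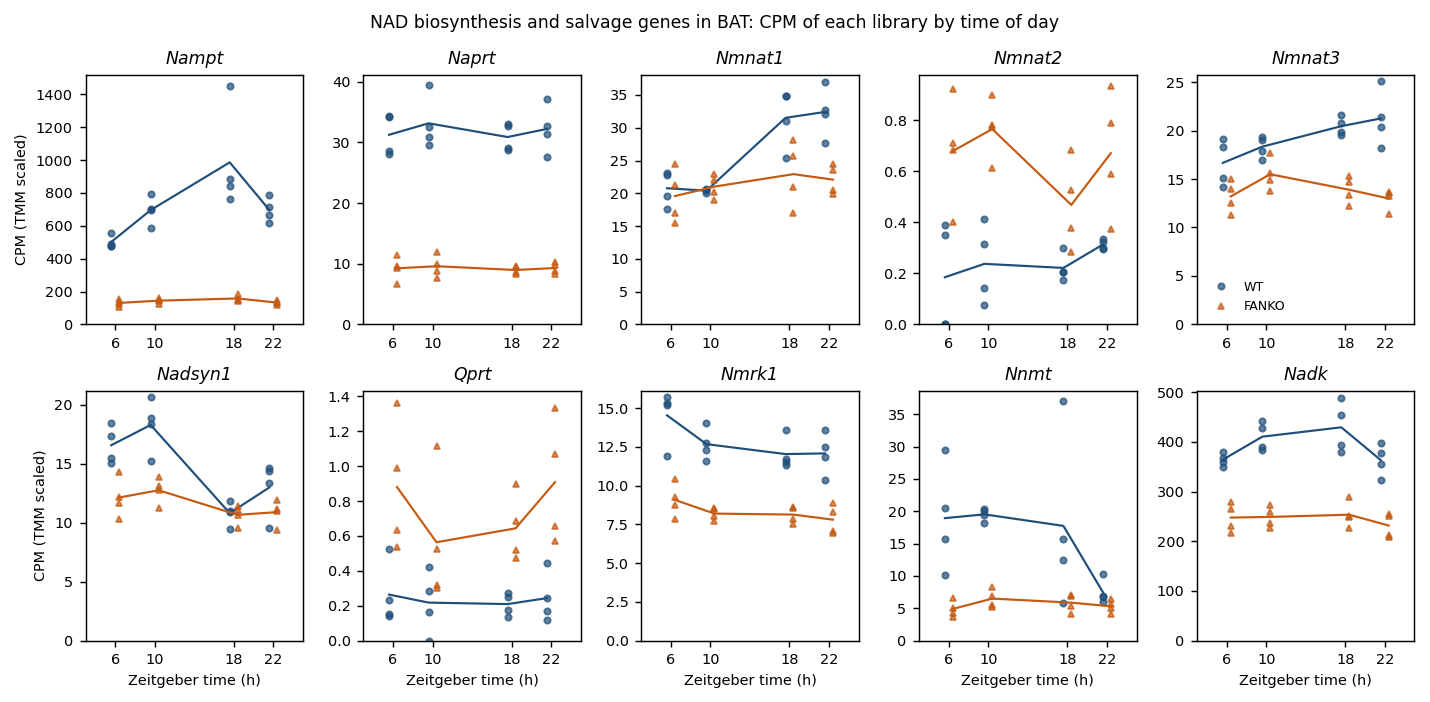
CPM (TMM scaled) of the 10 genes in BAT against Zeitgeber time in hours, with 1 point per library (WT circles, FANKO triangles) and lines through the means of 4 libraries. *Nampt*, *Naprt* and *Nadk* of all 16 FANKO libraries lie below all 16 WT libraries, and *Nmnat2* and *Qprt* stay at or below 1.36 CPM in every library.

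The last steps of synthesis fell less. *Nmnat1*, whose product acts in the nucleus, had a median of 24.2 CPM in WT BAT and 21.1 CPM in FANKO BAT (log2 difference -0.27 ± 0.06, adjusted p = 6.96e-05 by edgeR). *Nmnat3*, whose product is mitochondrial, had medians of 19.2 and 13.7 CPM (-0.47 ± 0.07). *Nadsyn1*, which the nicotinic acid and tryptophan routes need, had medians of 14.8 and 11.3 CPM (-0.31 ± 0.06). The genotypes overlapped for each of these 3 genes. Their direction turned with library size alone, to 0.32 for *Nmnat1* and 0.28 for *Nadsyn1*, both then called higher, and to 0.12 for *Nmnat3*, not called. That scaling moved the log2 difference of all genes by a median of 0.59. Setting the 3 genes against that shift would only restate the TMM result. Their direction in BAT thus depends on the scaling.

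*Nadk*, which draws NAD into NADP, ran from 323 to 489 CPM in WT BAT (median 382) and from 208 to 289 CPM in FANKO BAT (median 249). The ranges did not overlap, and the fall was 0.67 ± 0.05 on the log2 scale (adjusted p = 1.73e-20 by edgeR), but 0.09 with library size alone and then not called (adjusted p = 0.148). *Nnmt* fell by 1.42 ± 0.16, from a median of 15.7 to 5.44 CPM, and was called lower under both scalings. In all, 3 of the 10 genes (*Nampt*, *Naprt* and *Nadk*) had ranges that did not overlap between the genotypes in BAT, where 22.6% of all genes had none.

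*Qprt*, the enzyme that takes quinolinate into the nicotinic acid mononucleotide pool, ran from 0 to 0.523 CPM in WT BAT (median 0.204) and from 0.300 to 1.36 CPM in FANKO BAT (median 0.644). *Nmnat2*, known best from neurons, ran from 0 to 0.414 CPM (median 0.298) and from 0.283 to 0.933 CPM (median 0.684). These ranges overlapped, and the rises were 1.65 ± 0.28 and 1.42 ± 0.24 on the log2 scale. Even after the rise, *Qprt* in FANKO BAT reached 0.283 CPM per kb, beside 27.9 CPM per kb for *Nampt* and 3.95 for *Naprt* in the same libraries.

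In eWAT the 10 genes divided. In FANKO eWAT, 3 were called lower (22.8% of all genes were), 4 were called higher (27.6% were) and 3 were not called, and the median log2 difference was 0.06, beside -0.02 over all genes. The 4 that rose were *Nmnat1*, *Nmnat3*, *Nadsyn1* and *Nadk*, all of which act downstream of the entry steps. No entry enzyme, whether for nicotinamide, nicotinic acid, riboside or quinolinate, was called higher.

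*Nampt* ran from 112 to 310 CPM in WT eWAT (median 149) and from 101 to 131 CPM in FANKO eWAT (median 114), with overlap, and fell by 0.50 ± 0.07 on the log2 scale (1.41-fold, adjusted p = 4.67e-09 by edgeR). The medians of FANKO BAT and FANKO eWAT, 143 and 114 CPM, thus lay near each other, and BAT stood 1.23-fold above eWAT in FANKO mice in place of 4.32-fold in WT mice. *Naprt* had medians of 9.69 CPM in WT and 9.20 CPM in FANKO eWAT, a log2 difference of -0.03 ± 0.07 that was not called (adjusted p = 0.723). With library size alone it was -0.28 and called lower (adjusted p = 0.00111 by edgeR), so this result depends on the scaling. *Nmrk1* had medians of 6.68 and 7.30 CPM (0.14 ± 0.06, adjusted p = 0.0385, not called), and its sign turned to -0.11 with library size alone. *Qprt* had medians of 0.756 and 0.485 CPM and a log2 difference of -0.60 ± 0.23 (adjusted p = 0.0198, not called), and it was called lower with library size alone and without the 15 libraries high in RNA of other tissues.

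*Nmnat1* ran from 6.38 to 9.92 CPM in WT eWAT (median 7.96) and from 10.3 to 13.5 CPM in FANKO eWAT (median 11.01). Every FANKO library lay above every WT library, and the rise was 0.52 ± 0.06 on the log2 scale (1.44-fold, adjusted p = 1.64e-10 by edgeR). *Nadsyn1* rose by 0.51 ± 0.06 and *Nmnat3* by 0.51 ± 0.07, from medians of 7.55 and 9.48 CPM to 10.7 and 15.05 CPM, and both overlapped between the genotypes. *Nadk* rose by 0.41 ± 0.04, from a median of 229 to 304 CPM. With library size alone, *Nmnat1*, *Nadsyn1* and *Nmnat3* were still called higher, by 0.28, 0.26 and 0.27 in that order, while *Nadk* at 0.17 was not called (adjusted p = 0.0111). That scaling called 5 of the 10 genes lower and 3 higher in eWAT, and moved the log2 difference of all genes by a median of -0.25.

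**Figure D2:**
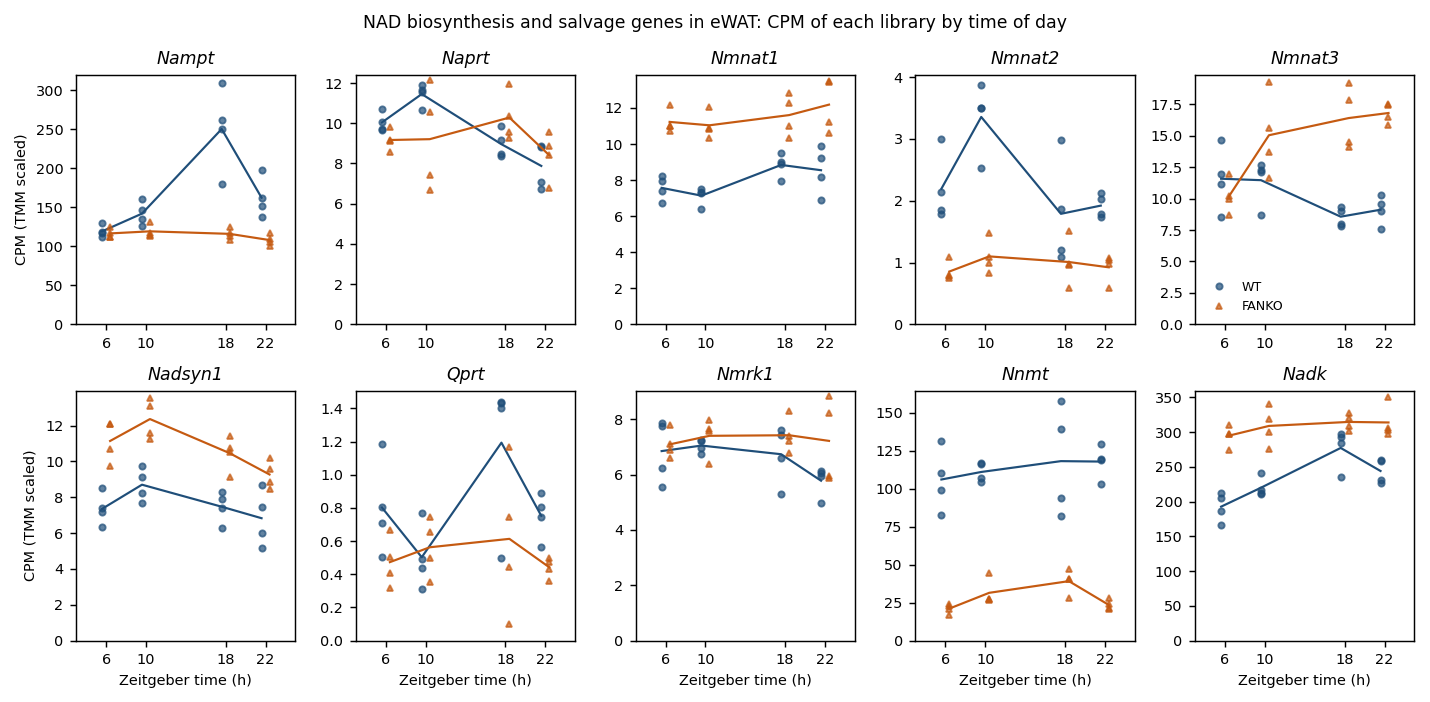
CPM (TMM scaled) of the 10 genes in eWAT against Zeitgeber time in hours, drawn as for BAT (WT circles, FANKO triangles, lines through the means of 4 libraries). All 16 FANKO libraries lie above WT for *Nmnat1* and below WT for *Nnmt*, and *Nampt* of the genotypes is parted at ZT 18 but not at ZT 6.

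*Nnmt* showed the largest difference of the 10 genes in eWAT. It ran from 82.3 to 157 CPM in WT eWAT (median 113) and from 16.9 to 47.2 CPM in FANKO eWAT (median 26.9). The ranges were far apart, and the fall was 2.02 ± 0.14 on the log2 scale (4.05-fold, adjusted p = 3.78e-19 by edgeR), beside 0.50 for *Nampt* in the same tissue. *Nmnat2* fell by 1.22 ± 0.17, from a median of 2.08 to 0.978 CPM. Ranges without overlap were thus found for 2 of the 10 genes in eWAT (*Nmnat1* and *Nnmt*), where 5.90% of all genes had none.

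The effect of genotype differed between the depots for all 10 genes in a direct test of the difference (64.3% of all genes tested), with a lower effect in BAT for 7 (32.1% of all genes) and a higher one for 3 (32.2%). For *Nmnat1*, *Nmnat3*, *Nadsyn1* and *Nadk* the difference in BAT was negative and that in eWAT positive, and the log2 effect in BAT minus that in eWAT was -0.79 ± 0.09, -0.98 ± 0.10, -0.82 ± 0.09 and -1.08 ± 0.06. For *Nmnat2* it was 2.64 ± 0.29, with a rise in BAT and a fall in eWAT. For *Naprt* it was -1.75 ± 0.10, close to the -1.82 ± 0.10 of *Nampt*. *Nnmt* fell in both depots, and its difference of 0.59 ± 0.21 was close to the threshold (adjusted p = 0.00966 by edgeR) and was lost without replicate 1, 2 or 3. With library size alone 3 in place of 7 of the genes had a lower effect in BAT, and *Nmnat1*, *Nmnat3*, *Nadsyn1* and *Nmrk1* were not called. *Naprt* had almost the same level in both depots of FANKO mice, at 3.95 CPM per kb in each, where in WT mice it was at 13.6 and 4.09.

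**Figure D3:**
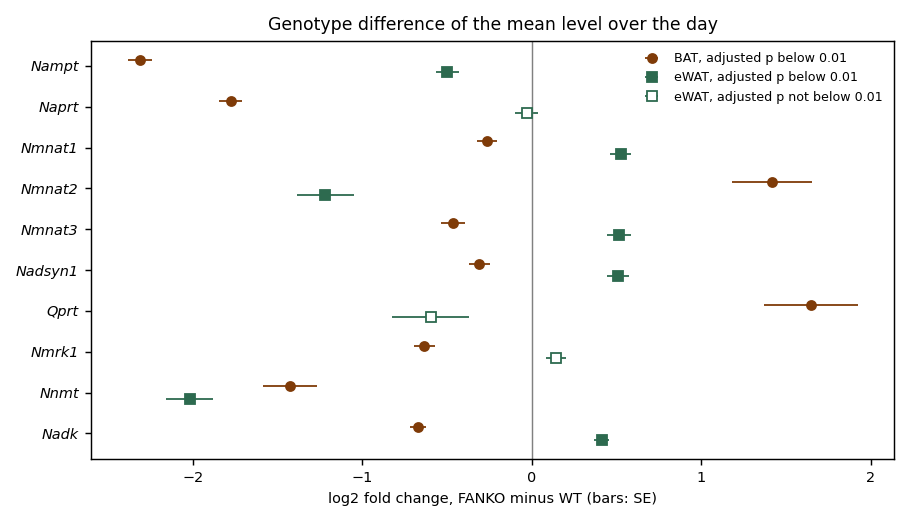
Log2 fold change of the mean level over the day, FANKO minus WT, with its SE for the 10 genes in BAT (circles) and eWAT (squares), filled where the adjusted p is below 0.01. *Nmnat1*, *Nmnat3*, *Nadsyn1* and *Nadk* lie left of 0 in BAT and right of it in eWAT, where *Nmnat1* with library size alone would lie at 0.32 in BAT, *Nadsyn1* at 0.28 and *Nmnat3* at 0.12.

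The cellular make-up of the RNA moved with genotype as well, most in BAT. All 5 macrophage markers were called higher in FANKO BAT, and their summed CPM went from 85.8 to 162 in WT BAT to 463 to 1139 in FANKO BAT. All 5 stromal markers were higher too, with sums of 376 to 1138 and 1188 to 2199 CPM. The sum of 5 adipocyte markers ran from 8815 to 12064 CPM in WT BAT and from 4009 to 7168 CPM in FANKO BAT, and that of 5 brown adipocyte markers from 5117 to 11113 and from 1301 to 3392 CPM. Of 5 endothelial markers, 4 were called lower in FANKO BAT and none in FANKO eWAT. In eWAT the adipocyte and macrophage sums overlapped between the genotypes, but single markers differed. Of the adipocyte markers, *Adipoq*, *Plin1* and *Lep* were called lower in FANKO eWAT and *Fabp4*, the largest part of the summed CPM, higher, with a median log2 difference of -0.44 over the 5, and 2 of 5 macrophage markers (*Adgre1* and *Cd68*) were called higher. The brown adipocyte sum in eWAT was 7.80 to 29.6 CPM in WT and 45.6 to 103 CPM in FANKO. Of its 5 markers, 3 were called higher, 1 was called lower and 1 was not called. *Cidea* was the largest part in FANKO eWAT, with a median of 40.6 CPM beside 4.13 CPM in WT. *Dio2* went the other way, from a median of 0.976 CPM in WT to 0.429 CPM in FANKO. All 5 stromal markers were called lower in FANKO eWAT, where their sum fell from between 2151 and 3804 CPM to between 1311 and 1925 CPM, and this sum moved in the same direction as *Nnmt* there. In BAT the stromal sum rose while *Nnmt* fell. The part of these shifts in the results on the 10 genes was not tested.

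**Figure D4:**
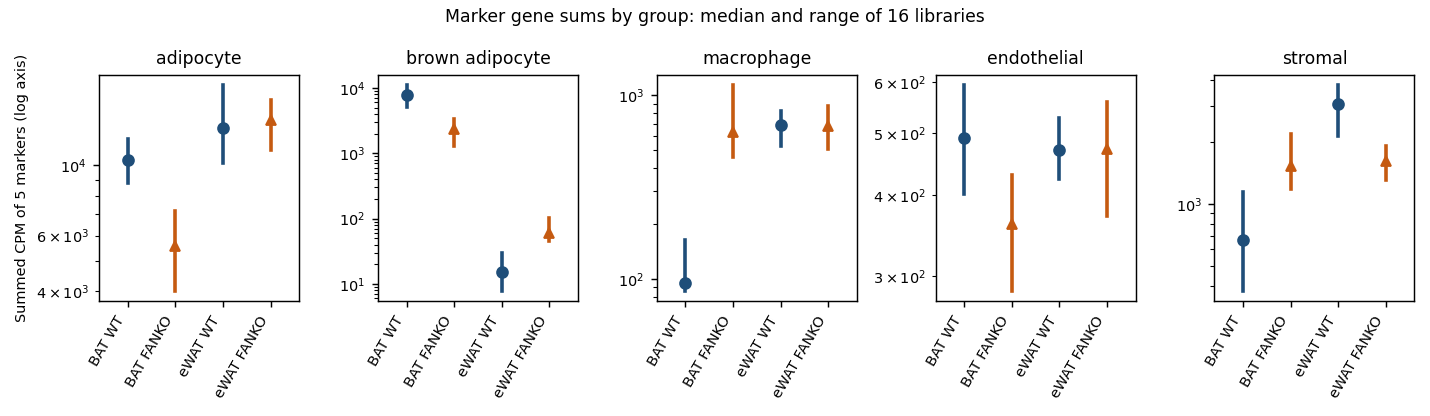
Summed CPM of 5 marker genes for each of 5 cell types (log axis), with the median as a symbol and the range of 16 libraries as a bar for each depot and genotype. The macrophage and adipocyte sums of the BAT genotypes do not overlap, and those of the eWAT genotypes do, although 3 of the 5 adipocyte markers were called lower and 1 higher in FANKO eWAT.

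Other genes of the same routes were read from another list of 22 genes, of which 21 were in the table and 16 passed the filter. In FANKO BAT, 9 of these 16 were called lower (33.9% of all genes were), 5 higher (33.1% were) and 2 were not called, so the number called higher was near the share over all genes. Of the 5 that rose, 4 belong to the kynurenine pathway, which leads from tryptophan to quinolinate. *Kmo*, the kynurenine hydroxylase, ran from 0.593 to 1.97 CPM in WT BAT (median 1.29) and from 5.65 to 20.1 CPM in FANKO BAT (median 10.5), a rise of 3.06 ± 0.16 on the log2 scale. *Kynu*, the kynureninase, had no count in 11 of 16 WT BAT libraries and at most 3 counts in the others, while FANKO BAT ran from 1.22 to 5.88 CPM. *Haao*, which makes the precursor of quinolinate, rose from a median of 0.139 to 2.04 CPM (3.84 ± 0.26), and *Afmid* from 1.04 to 2.25 CPM (1.15 ± 0.13). *Afmid* shares 1566 exonic bases with *Gm20708* on its strand. *Acmsd*, which diverts the pathway away from quinolinate, fell by 1.11 ± 0.24, from a median of 1.13 to 0.491 CPM, and was not called with library size alone (adjusted p = 0.0488).

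These kynurenine genes rose beside the macrophage sum in BAT, and that relation was not tested. The medians of *Kmo* and *Haao* in FANKO BAT lay above those of WT eWAT (4.28 and 1.81 CPM). The macrophage sum had medians of 629 CPM in FANKO BAT and 688 CPM in WT eWAT, but its markers differed. In the same order, *Adgre1* (118 and 47.7 CPM) and *Cd68* (78.1 and 16.4) had higher medians in FANKO BAT. *Csf1r* (89.6 and 154 CPM) and *Mrc1* (75.6 and 178) had lower ones, and *Lyz2* was at 290 and 286 CPM. The sums thus do not show equal macrophage content. At the head of the pathway, *Tdo2* was not called in BAT (0.59 ± 0.27, adjusted p = 0.0424), and *Ido1* and *Ido2* did not pass the filter, with at most 17 counts in any library.

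Among the other genes that fell by at least 1 on the log2 scale in BAT, *Slc25a51*, the mitochondrial NAD carrier, went from a median of 631 to 280.5 CPM (-1.15 ± 0.06), and shares 125 exonic bases with *Gm25692* on its strand. *Slc29a1*, a nucleoside transporter, went from 71.6 to 27.8 CPM (-1.33 ± 0.08). *Nadk2*, the mitochondrial NAD kinase, went from 79.1 to 30.7 CPM (-1.35 ± 0.06). *Nudt12*, which hydrolyses NADH, went from 126 to 67.5 CPM (-1.03 ± 0.06). All 4 genes were also called lower with library size alone. The genotypes did not overlap for *Slc25a51*, *Nadk2* and *Nudt12*, which were picked for the size of their change. In BAT 22.6% of all genes did not overlap, and neither did *Naxd* and *Aox1* of this list, which fell by less. *Acmsd*, *Slc29a1*, *Nudt12* and *Naxd* share exonic bases with genes on the opposite strand. Whether the counting used strand is not given in the sources used here. The second riboside kinase, *Nmrk2*, did not pass the filter, with at most 7 counts in any library.

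In FANKO eWAT 5 of the 16 genes were called lower (22.8% of all genes were) and 5 higher (27.6% were), none by as much as 1 on the log2 scale. Both counts were near the shares over all genes, and 2 to 4 genes were called lower when 1 replicate number was left out. *Slc25a51* rose by 0.53 ± 0.06, from a median of 111 to 167 CPM, where it had fallen in BAT, and *Nadk2* and *Nudt12* rose by 0.26 ± 0.06 and 0.31 ± 0.06, but were not called with library size alone. *Kmo* (0.06 ± 0.14) and *Kynu* (-0.31 ± 0.25) were not called, and *Haao* fell by 0.60 ± 0.18, a call that was lost without replicate 2 or without replicate 4. The median log2 difference of the 16 genes was -0.58 in BAT and 0.03 in eWAT, beside 0.00 and -0.02 over all genes.

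**Figure D5:**
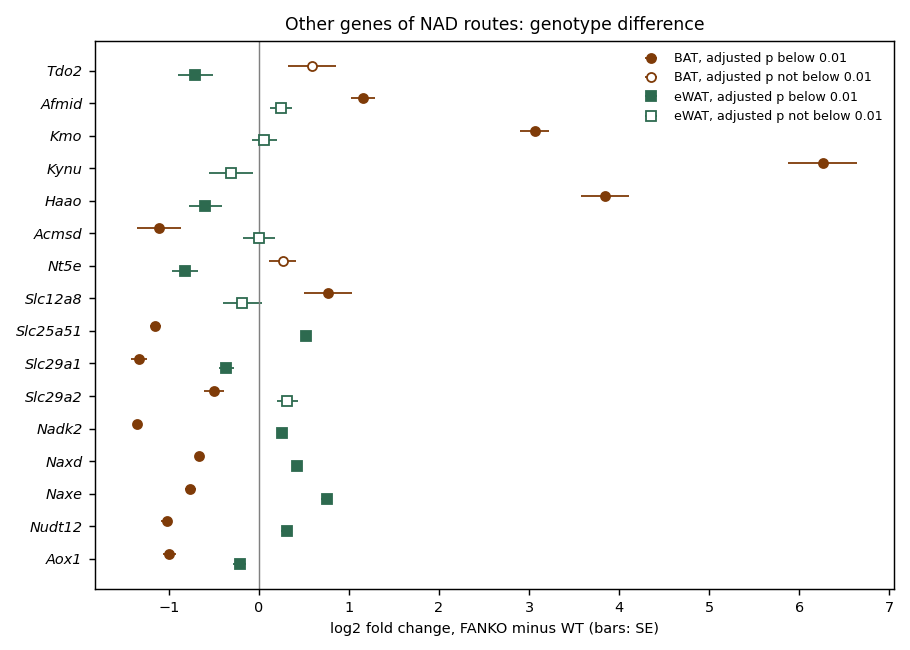
Log2 fold change of the mean level over the day, FANKO minus WT, with its SE for 16 other genes of NAD routes in BAT (circles) and eWAT (squares), filled where the adjusted p is below 0.01. *Kmo*, *Kynu* and *Haao* lie above 3 in BAT and between -0.60 and 0.06 in eWAT.

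The daily course was tested with a cosine of 24 h. In WT BAT 4 of the 10 genes were called rhythmic (13.9% of all genes were), namely *Nampt*, *Nmnat1*, *Nadsyn1* and *Nnmt*. *Nmnat1* was at 20.8 ± 2.65 and 20.4 ± 0.245 CPM at ZT 6 and ZT 10 and at 31.5 ± 4.49 and 32.4 ± 3.81 CPM at ZT 18 and ZT 22 (SD, n = 4). *Nadsyn1* ran the other way, from 16.6 ± 1.60 and 18.3 ± 2.25 CPM in the light phase to 10.8 ± 1.00 and 13.0 ± 2.37 CPM in the dark phase. *Nnmt* was lowest at ZT 22, with 7.47 ± 1.88 CPM, and scattered widely at ZT 18, from 5.80 to 37.0 CPM. The *Nnmt* call was lost without replicate 1, 2 or 3, and the calls of *Nampt* and *Nadsyn1* were lost without the 15 libraries high in RNA of other tissues, which leaves 1 library in WT BAT at ZT 18.

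In FANKO BAT none of the 10 genes was called rhythmic by edgeR, DESeq2 or limma-voom (2.84% of all genes were by edgeR), and none had an unadjusted p below 0.05. The peak-to-trough range over the 4 time points was 0.22 ± 0.22 log2 CPM for *Nmnat1* and 0.25 ± 0.08 for *Nadsyn1*, beside 0.66 ± 0.09 and 0.75 ± 0.11 in WT BAT (SE). The direct test of the difference of rhythms called none of the 10 genes in BAT by edgeR (2.76% of all genes), and 4 had an unadjusted p below 0.05. *Nmnat1* was nearest, with an adjusted p of 0.0126, and it was called with RLE factors, with a minimum count of 50, by DESeq2 and by limma-voom. Under TMM, *Nmnat1* of the genotypes was apart in the dark phase, where it differed by -0.47 ± 0.12 at ZT 18 and -0.56 ± 0.12 at ZT 22, both called, and not in the light phase, with -0.09 ± 0.12 at ZT 6 and 0.05 ± 0.12 at ZT 10, neither called. *Nadsyn1* differed in the light phase, by -0.46 ± 0.12 at ZT 6 and -0.51 ± 0.12 at ZT 10, and was not called at ZT 18 (-0.02 ± 0.13) or ZT 22 (-0.25 ± 0.13). This division by phase depends on the scaling. With library size alone both differences were positive at all 4 time points, and *Nmnat1* was called at ZT 6 and ZT 10 only and *Nadsyn1* at ZT 18 only. Under TMM, the *Nmnat1* call at ZT 18 and the *Nadsyn1* call at ZT 6 were lost without replicate 1 and without the 15 libraries, and the *Nadsyn1* call at ZT 10 without replicate 3.

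In WT eWAT 3 of the 10 genes were called rhythmic (9.38% of all genes were), namely *Nampt*, *Nadk* and *Naprt*. *Nadk* rose from 193 ± 20.4 CPM at ZT 6 to 277 ± 28.6 CPM at ZT 18 (SD, n = 4), with the same peak and trough as *Nampt*, and in FANKO eWAT its means lay between 295 and 315 CPM. Its call was lost with library size alone (adjusted p = 0.0287). *Naprt* went from 11.5 ± 0.539 CPM at ZT 10 to 7.88 ± 1.15 CPM at ZT 22, and its call was lost when any 1 replicate number was left out. In FANKO eWAT *Nmnat3* alone was called (6.77% of all genes were), a call also lost when any 1 replicate number was left out.

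The rhythms of *Nampt* and *Nmnat3* in eWAT differed between the genotypes in the direct test (1.15% of all genes did), with adjusted p of 0.000398 and 0.000637 by edgeR. *Nampt* in FANKO eWAT was level, at 108 to 119 CPM, and its log2 difference from WT was -0.03 ± 0.13 at ZT 6 and -1.11 ± 0.13 at ZT 18. *Nmnat3* in WT eWAT stood at 11.6 ± 2.52 CPM at ZT 6 and 8.56 ± 0.756 CPM at ZT 18, and in FANKO eWAT at 10.2 ± 1.32 and 16.4 ± 2.48 CPM. Its difference was -0.18 ± 0.14 at ZT 6, not called, and 0.93 ± 0.13 and 0.88 ± 0.14 at ZT 18 and ZT 22, both called. Under TMM these were also the time points at which *Nampt* was called lower in FANKO eWAT, by 1.11 at ZT 18 and by 0.59 ± 0.13 at ZT 22. With library size alone *Nampt* was called lower at ZT 10 too (-0.56, adjusted p = 0.00647 by edgeR), so this match of time points depends on the scaling. Both calls of a difference in rhythm were lost without replicate 1 and without the 15 libraries, of which 7 were of eWAT, that of *Nmnat3* also without replicate 3 or 4 and that of *Nampt* with library size alone (adjusted p = 0.0323).

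By time point, the 10 genes gave 40 tests in each depot. In BAT 25 were called lower and 5 higher, but 11 lower and 11 higher with library size alone. Of all genes, 23.9%, 22.4%, 22.5% and 22.7% were called lower there at ZT 6, ZT 10, ZT 18 and ZT 22, and 24.4%, 23.3%, 21.5% and 22.6% higher. In eWAT 8 were called lower and 12 higher, and with library size alone 11 lower and 2 higher. Of all genes in eWAT, 10.1%, 8.46%, 5.10% and 8.02% were called lower under TMM at these time points, and in the same order 16.9%, 16%, 8.54% and 12.6% higher. *Nnmt* was lower at each time point in eWAT, by between 1.59 and 2.34 on the log2 scale, and in BAT it was called at ZT 6, ZT 10 and ZT 18 but not at ZT 22 (-0.47 ± 0.33). The WT BAT libraries at ZT 18 spread from 5.80 to 37.0 CPM. Without the 15 libraries high in RNA of other tissues, which leaves 1 of them, the difference there was -1.21. Under TMM with all libraries, *Nadsyn1* was the only gene called higher at all 4 time points in eWAT. This cannot hold with library size alone, where 2 of the 40 tests in eWAT were called higher. With each replicate number left out in turn, 7 to 8 of the 40 tests in eWAT were called higher under TMM. Without the 15 libraries, 2 of the 40 tests were called higher in BAT and 7 in eWAT.

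A search was made for the 5 genes whose levels followed *Nampt* most closely across the 16 WT libraries of each depot, by the smaller of the correlations in the 2 depots. They were *Sypl*, *Ranbp6*, *Fam126b*, *Fmo1* and *Ivd*, and the smaller Pearson r was 0.84 to 0.92 on log2 CPM. These libraries share 4 time points, so a common daily course enters each value, and Spearman's rho gave 3 of the same 5 genes. Of the other 9 genes, *Nadk* stood highest, in place 60, with r of 0.71 in BAT and 0.88 in eWAT.

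No promoter sequence was available for *Naprt*, called rhythmic in WT eWAT, or for *Nnmt*, called rhythmic in WT BAT. Promoter sequences of RefSeq (GRCm38.p6, 250 bases before and 50 after the start) were found for the other 8 of the 10 genes, in 10 windows. They were searched on both strands for 2 motifs that do not overlap each other, the E-box CACGTG bound by the clock activators and the site AGGTCA bound by REV-ERB and ROR receptors. CACGTG was in 1 of the 10 windows and in 7.15% of all windows in that table, and AGGTCA was in 2 of the 10 and in 16.3% of all. These counts were near the shares over all windows. The matches are shown as the positions of both motifs in *Nampt*, *Nadk* and *Nmnat3*, and neither motif was in the windows of *Nmnat1* and *Nadsyn1*, which were called rhythmic in WT BAT. Capitals mark the match, which begins 151 bases before the start in *Nampt*, 40 bases before it in *Nadk* and 23 bases after it in *Nmnat3*. The stretches are chr12:32820085-32820334, chr4:155563565-155563814 and chr9:98296581-98296610, all on the plus strand. A match is a description of the letters in the window and no evidence of binding.

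*Nampt*: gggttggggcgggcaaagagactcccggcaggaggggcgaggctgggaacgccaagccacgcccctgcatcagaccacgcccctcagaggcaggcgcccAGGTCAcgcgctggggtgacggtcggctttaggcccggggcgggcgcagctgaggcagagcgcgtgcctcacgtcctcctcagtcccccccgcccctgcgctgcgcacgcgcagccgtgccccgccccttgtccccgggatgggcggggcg

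*Nadk*: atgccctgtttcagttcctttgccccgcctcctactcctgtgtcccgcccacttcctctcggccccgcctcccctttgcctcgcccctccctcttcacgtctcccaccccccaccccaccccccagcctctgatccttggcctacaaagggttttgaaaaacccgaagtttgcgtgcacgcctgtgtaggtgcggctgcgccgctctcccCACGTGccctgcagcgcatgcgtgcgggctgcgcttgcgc

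*Nmnat3*: gctgggagcgcaAGGTCAagttcactcgcg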

How the data were processed

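Per the labels and the methods of the study, the authors made stranded, rRNA-depleted total RNA libraries, aligned reads with STAR 2.5.3a to GRCm38.p5 with GENCODE annotation, and deposited whole-number counts per gene from featureCounts 1.5.3, not normalized or pooled. The 2 versions come from the submitters' processing notes. All 64 samples were grouped by their labels. The members and lists were chosen with earlier results of these data known.

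Genes were kept by filterByExpr on the 16 groups (minimum count 10, minimum total 15), which left 20249 of 52636. After TMM scaling, 1 quasi-likelihood model (edgeR 4.0.16, R 4.3.3) held, for every pairing of depot and genotype, the daily mean and 2 terms of a 24 h wave. Single time points were compared in a model of 16 group means. P values were adjusted by Benjamini-Hochberg over all genes tested. Ranges, peak-to-trough values and correlations used log2 CPM with a prior count of 2. DESeq2 1.42.0 and limma 3.58.1 were alternatives. Text names all 10 genes, genes of the other list called with a log2 difference of at least 1 in either depot, and the 5 genes most like *Nampt*; other genes were named after their values were seen. Exonic lengths and symbols came from GENCODE M21. In a check on simulated data (20249 genes), the fit recovered 82.5% of 200 genes changed 2-fold between FANKO and WT BAT. As many of the 200 were raised as lowered, and no other gene differed in mean level. The check therefore does not bear on the choice of scaling. Labels do not say that equal replicate numbers mark 1 animal. The p-values set differences against the spread between these samples, and the main model treated all 64 as independent.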

Additional observations from a re-analysis of the deposited data

Results flagged for a closer look

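Under TMM, the effect of genotype on the mean level differed between the depots for all 10 genes in the test of the difference itself. The log2 effect in BAT minus that in eWAT was -1.82 for *Nampt*, -1.75 for *Naprt*, -0.79 for *Nmnat1*, 2.64 for *Nmnat2*, -0.98 for *Nmnat3*, -0.82 for *Nadsyn1*, 2.25 for *Qprt*, -0.78 for *Nmrk1*, 0.59 for *Nnmt* and -1.08 for *Nadk*. Of all genes tested, 64.3% differed in the same test. With library size alone *Nmnat1*, *Nmnat3* (-0.15), *Nadsyn1* and *Nmrk1* were not called, and the *Nnmt* call was lost without replicate 1, 2 or 3.

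In 8 of 160 groups of 4 libraries, 1 library stood apart from the other 3 by Dixon's ratio, and chance gives about 1 in 20 groups, or 8. In WT BAT, *Nampt* was at 559 CPM in replicate 1 at ZT 6, where the nearest other library had 490. *Nmrk1* was at 11.9 CPM in replicate 2 at ZT 6 (nearest 15.2). In FANKO BAT, *Nmnat3* was at 11.4 CPM in replicate 3 at ZT 22 (nearest 13.3). In WT eWAT, *Nmnat3* was at 8.73 CPM in replicate 2 at ZT 10 (nearest 12.1), *Qprt* at 0.498 CPM in replicate 2 at ZT 18 (nearest 1.40) and *Nmrk1* at 4.98 CPM in replicate 2 at ZT 22 (nearest 5.94). In FANKO eWAT, *Nmnat2* was at 1.08 CPM in replicate 4 at ZT 6 (nearest 0.794) and *Nnmt* at 44.6 CPM in replicate 1 at ZT 10 (nearest 27.2). The *Nampt* library of WT BAT also held skeletal muscle RNA, at 171 summed CPM of 4 muscle genes, and its part in the value was not tested.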

How the results depend on the processing

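The counts of genes that differed in mean level (8 lower and 2 higher in FANKO BAT, 3 lower and 4 higher in FANKO eWAT) were the same under RLE factors, DESeq2, limma-voom, time point as a factor and the replicate block. With library size alone, which moved the log2 difference of all genes by a median of 0.59 in BAT and -0.25 in eWAT, BAT had 3 lower and 4 higher, eWAT had 5 lower, 3 genes had a lower effect in BAT than in eWAT, 4 were higher in WT BAT than in WT eWAT, 1 rhythm differed between genotypes in eWAT, 11 tests at single time points were lower and 11 higher in BAT, 2 were higher in eWAT, and 3 genes of the other list were higher in eWAT. The direction then turned for the BAT differences of *Nmnat1* (0.32), *Nmnat3* (0.12) and *Nadsyn1* (0.28), the eWAT difference of *Nmrk1* (-0.11), the differences between depots of *Nmnat1* (0.039), *Nadsyn1* (0.018) and *Nmrk1* (0.066), and *Nmnat3* in FANKO BAT against FANKO eWAT (0.034). At single time points it turned for *Nmnat1* in BAT (0.47, 0.13 and 0.050 at ZT 6, ZT 18 and ZT 22), *Nadsyn1* in BAT (0.10, 0.063, 0.60 and 0.36 at ZT 6, ZT 10, ZT 18 and ZT 22), *Nnmt* in BAT at ZT 22 (0.12) and *Nadk* in eWAT at ZT 18 (-0.00051).

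*Nmnat3* in FANKO BAT against FANKO eWAT, near 0 throughout, also turned with RLE factors (0.022), a minimum count of 50 (0.017), DESeq2 (0.022) and without the 15 libraries high in muscle or epididymis RNA (0.0018). *Nadsyn1* in BAT at ZT 18 turned with RLE factors (0.027), a minimum count of 50 (0.036) and DESeq2 (0.022). With each replicate number left out in turn, the difference changed sign for *Nadsyn1* in BAT at ZT 18 (-0.043 to 0.022), *Naprt* in eWAT (-0.092 to 0.0087), *Nmnat1* in BAT at ZT 6 (-0.16 to 0.065) and ZT 10 (-0.0039 to 0.11), and *Naprt* in FANKO BAT against FANKO eWAT (-0.031 to 0.070), none of them called.

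With a minimum count of 50, at which *Qprt* is no longer tested, 1 gene was higher in BAT and 2 tests at single time points were. The difference of rhythms in BAT was called for 1 gene with RLE factors, a minimum count of 50, DESeq2 or limma-voom and for 2 at an adjusted p below 0.05. Rhythm in FANKO eWAT was called for 2 genes by limma-voom and for 2 at 0.05. Without the 15 libraries above the limits for muscle or epididymis genes, an alternative chosen after seeing the data, 2 rhythms were called in WT BAT, 0 in FANKO eWAT and 0 differences of rhythm in eWAT, and 2 tests at single time points were higher in BAT and 7 in eWAT. Spearman's rho kept 3 of the 5 genes most like *Nampt*. The cause of these changes was not tested.

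Leaving out each replicate number in turn gave 0 to 2 differences of rhythm in eWAT, 0 to 1 rhythms in FANKO eWAT, 2 to 5 tests higher in BAT and 7 to 8 in eWAT at single time points, and 2 to 4 genes of the other list lower in eWAT. With the replicate block, no count moved, and *Naprt* in FANKO BAT against FANKO eWAT turned to -0.0027. Deviations of BAT and eWAT samples with the same number had a median r of 0.053 (-0.13 to 0.31), beside -0.021 (-0.27 to 0.15) for those with other numbers. The labels do not say whether equal numbers mark 1 animal, and these values do not settle it. *Qprt* and *Nmnat2* in BAT are limited by depth, with few counts per library.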
